A study of Mus musculus with 15 samples.

Results

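Aortic valve leaflets of Notch1 wild type mice with short telomeres were compared with leaflets of Notch1 wild type mice with long telomeres. The comparison covers all 18073 genes of the deposited expression table and rests on 7 of the 15 samples of the series. There were 3 samples labelled N1WT_TercG2 (Notch1 wild type, Terc null, generation 2) and 4 labelled N1WT_TercWT (Notch1 wild type, Terc wild type). All came from C57BL/6 mice aged 2 months, with 3 leaflets taken per mouse. The labels do not state the sex of the mice. The remaining 8 samples, from mice heterozygous for Notch1, gave the same telomere comparison in other animals: 4 were labelled N1het_TercG2 and 4 N1het_TercWT. For each gene and group the authors deposited 1 pooled FPKM value, which is the number of sequenced fragments scaled to the length of the transcript and to the library total. No spread between mice, read depth or test can be derived from such values, and whether 1 mouse decides a value cannot be told. Every count below is therefore a description without a p-value. Differences are given as log2(FPKM + 1) with short telomeres minus log2(FPKM + 1) with long telomeres, so that a difference of 2 is 4-fold on that scale, and for genes of low abundance this scale gives less than the full change.

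Telomeres are the repeated DNA caps of chromosome ends. Telomerase, an enzyme that copies the template RNA Terc, rebuilds them, and the shelterin proteins keep them from being read as broken DNA. Without Terc, telomeres shorten with each generation of mice, and very short ends are known to switch on the DNA damage kinases and p53. Notch1 is a receptor of the valve endothelium whose loss is linked to malformed and calcified aortic valves in people. The series asks what short telomeres add to the loss of a Notch1 copy, and the wild type comparison is its reference for short telomeres alone. Mice of the short telomere group lack Terc as well, so the absence of Terc and the shortening cannot be told apart here, and telomere length is not part of the table.

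The targeted gene was looked up first. Terc, deposited under the name Telomerase-vert, stood at 1.42 FPKM with long telomeres and was listed at 0 with short telomeres. In the heterozygous valves it stood at 4.52 FPKM and was listed at 0. The 1605 genes listed at 0 with short telomeres alone in wild type valves had a median of 1.05 FPKM with long telomeres. A fall to 0 from so low a level therefore cannot check the labels. Notch1 was not targeted in either wild type group but stood at 39.1 FPKM with long and 16.6 FPKM with short telomeres, a difference of -1.19. In the heterozygous valves Notch1 stood at 25.1 and 23.3 FPKM. The wild type group with short telomeres thus lay below both heterozygous groups, so Notch1 RNA did not order the groups by their labels. The defining genes of valve interstitial cells were detected at high levels in both groups: Vim, an intermediate filament of mesenchymal cells, stood at 1339 and 1314 FPKM, and Dcn, the matrix proteoglycan decorin, at 2692 and 4698 FPKM. Of the 16 fibroblast genes 14 lay within 2-fold, and 0 were at 0 in any of the 4 groups. The leaflets also carried RNA of heart muscle (Tnnt2, cardiac troponin T, at 1172 and 1432 FPKM), red cells and platelets, so each value is a mean over a mixture of cells. In such bulk samples fewer cells of a type and less RNA per cell cannot be told apart.

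With short telomeres more genes were lower than higher. At least 4-fold higher were 419 genes, 2.32% of all, and at least 4-fold lower were 935 genes, 5.17% of all. At least 2-fold higher were 1608 genes (8.9%), and at least 2-fold lower were 3779 genes (20.9%). The median difference over all genes was -0.23, with quartiles of -0.86 and 0.29. The gene lists below are read beside that median, and their counts past 2-fold beside the 8.9% and 20.9% of all genes. The lower genes were mostly of low abundance. Among 7910 genes with a mean of 1 to 10 FPKM, 756 were 4-fold lower and 248 4-fold higher, and the median was -0.47. Among the 558 genes at 100 FPKM or more, 6 were 4-fold lower and 18 higher, and the median was 0.23. Of the genes past 4-fold, 30.9% were higher, and this share was 45.7% after the difference was centred on its median, a shift of 0.23. The table lists 2010 genes at 0 with short and 705 with long telomeres, and 1605 genes were at 0 with short telomeres alone. Mitochondrially encoded genes made up 32.5% of the FPKM total with short and 14.4% with long telomeres, and the 20 highest genes made up 38.1% and 19.5%. Most of the mitochondrial FPKM fell on 20 transfer RNA genes, which summed to 144998 with short and 48387 with long telomeres. The 4 mitochondrial protein genes summed to 44507 and 13254. Transfer RNA genes are far shorter than a read, so these percentages are not shares of RNA. The share of higher genes among those past 4-fold was 27.5% when both groups were scaled to the same total without mitochondrially encoded genes and 48.9% among genes with a mean of at least 10 FPKM. In the heterozygous valves 4.71% of all genes were at least 2-fold higher and 16.8% at least 2-fold lower with short telomeres. Depth per library is unknown.

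**Figure D1:**
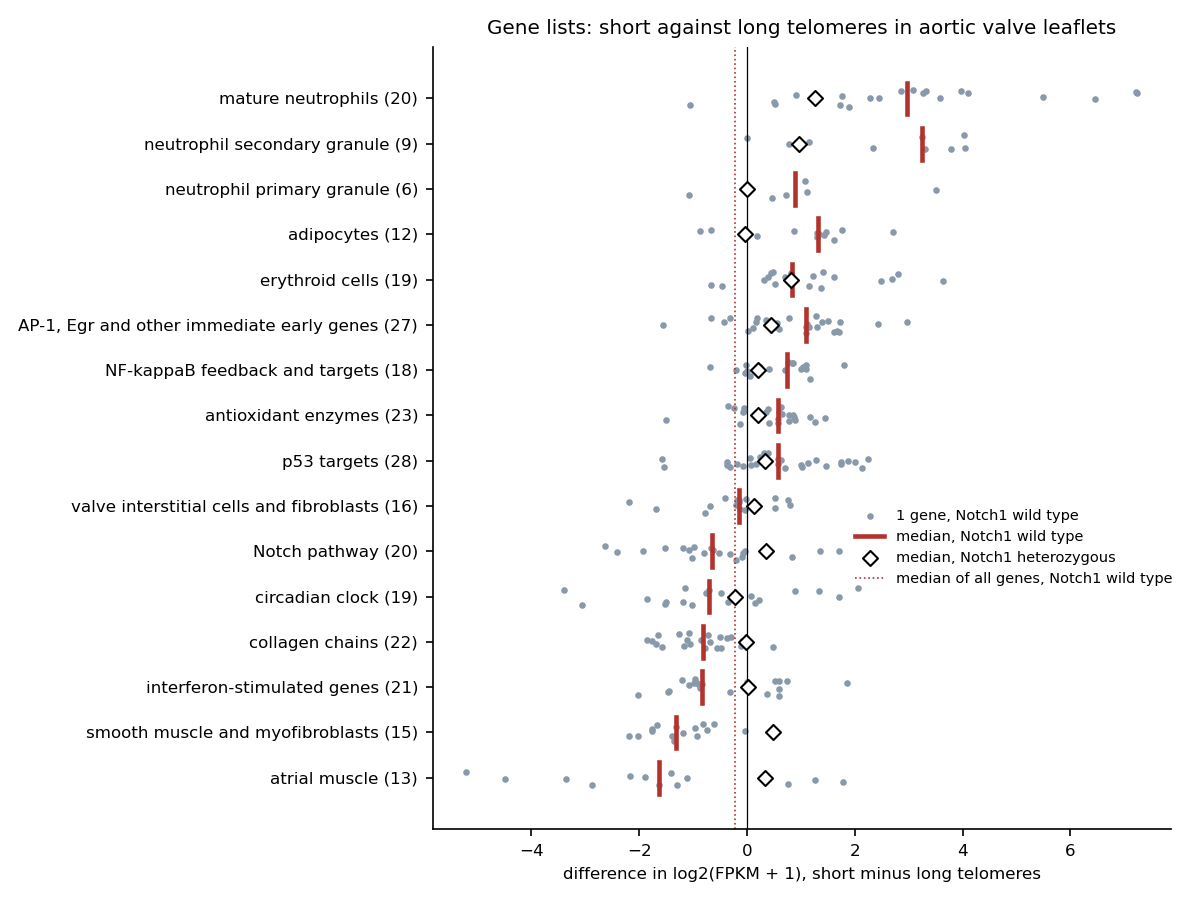
Difference in log2(FPKM + 1), short minus long telomeres, for the members of 16 gene lists, with the number of measured genes in parentheses. Points are genes in Notch1 wild type valves, bars their medians, diamonds the medians in Notch1 heterozygous valves and the dotted line the median of all genes (-0.23). The secondary granule and mature neutrophil lists lie farthest to the right and the atrial list, with a median of -1.63, farthest to the left.

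The 15 genes with the largest positive differences, among named genes reaching 10 FPKM, were led by neutrophil transcripts. Retnlg, S100a8, S100a9 and Stfa2l1 belong to neutrophils. Outside these 15, the B cell genes Pax5 (2.89 and 0.0421 FPKM) and Blk (4.72 and 0.0718 FPKM) were lower. Apoc1, an apolipoprotein, stood at 0.212 and 32.9 FPKM. A gene deposited as Bet1l (ENSMUSG00000080136), the name of a Golgi SNARE protein, stood at 4.81 and 202 FPKM, against 24.2 and 15.6 FPKM in the heterozygous valves. A second identifier with that name stood at 7.67 and 21 FPKM. Sertm1, Npn2, Tcrg-V2, the mitotic cyclin Ccnb2, and the small RNAs SNORA36 and SCARNA8 were also among them, with Trbj2-4 and Igkj4, which are joining segments of antigen receptors. The 15 genes with the largest negative differences were mostly short non-coding RNAs: 3 copies named U6, SNORD113, SNORD37, 5S_rRNA, Y_RNA, the joining segment Traj32 and the microRNA hairpins mir-99a, mir-199a-1 and mir-27b. The protein-coding genes among them were U2af1l4, a splicing factor at 316 and 4.44 FPKM, Snurf, which shares the imprinted Snrpn transcript and stood at 56.2 FPKM and 0, and Bmp10, a growth factor of the atria. Ccl19-ps1, a chemokine pseudogene, was the remaining one.

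The secondary granule and mature neutrophil lists had the highest medians of the 52 gene lists. Neutrophils pack their granules in order as they mature in the bone marrow: the primary granule in promyelocytes, the secondary granule in myelocytes, and the surface receptors and calprotectin in mature cells. Of 20 genes of mature neutrophils, 16 were at least 2-fold higher, 13 of them at least 4-fold, and 1 was 2-fold lower, with a median of 2.97. Of 9 secondary granule genes, 7 were at least 2-fold higher and 0 lower, with a median of 3.24. Of 6 primary granule genes, 3 were higher and 1 lower, with a median of 0.90.

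Within the secondary granule, Camp (the antimicrobial cathelicidin) and Ngp (neutrophilic granule protein) were listed at 0 with long telomeres and stood at 15.2 and 15.6 FPKM with short. Ltf, the iron-binding lactoferrin, stood at 0.0548 and 8.98 FPKM. Mmp8, the neutrophil collagenase, stood at 0.044 and 9.29 FPKM. All 4 were at or near 0 with long telomeres. The receptor for chemokines of the CXC type, Cxcr2, stood at 0.321 and 19.8 FPKM, and Il1r2, the decoy receptor for interleukin 1, at 1.35 and 27.2 FPKM. Hdc, which makes histamine in myeloid and mast cells, stood at 0.657 and 27.4 FPKM, while the mast cell protease Mcpt4 stood at 7.38 FPKM and 0. Of the primary granule genes, Elane, neutrophil elastase, was listed at 0 and stood at 10.4 FPKM, and Mpo, myeloperoxidase, stood at 0.0571 and 1.28 FPKM. The surface marker Ly6g was low in both groups, listed at 0 and at 2.69 FPKM. The summed FPKM of the 20 mature neutrophil genes was 142 with long and 2232 with short telomeres, and S100a8 and S100a9 made up most of the latter.

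**Figure D2:**
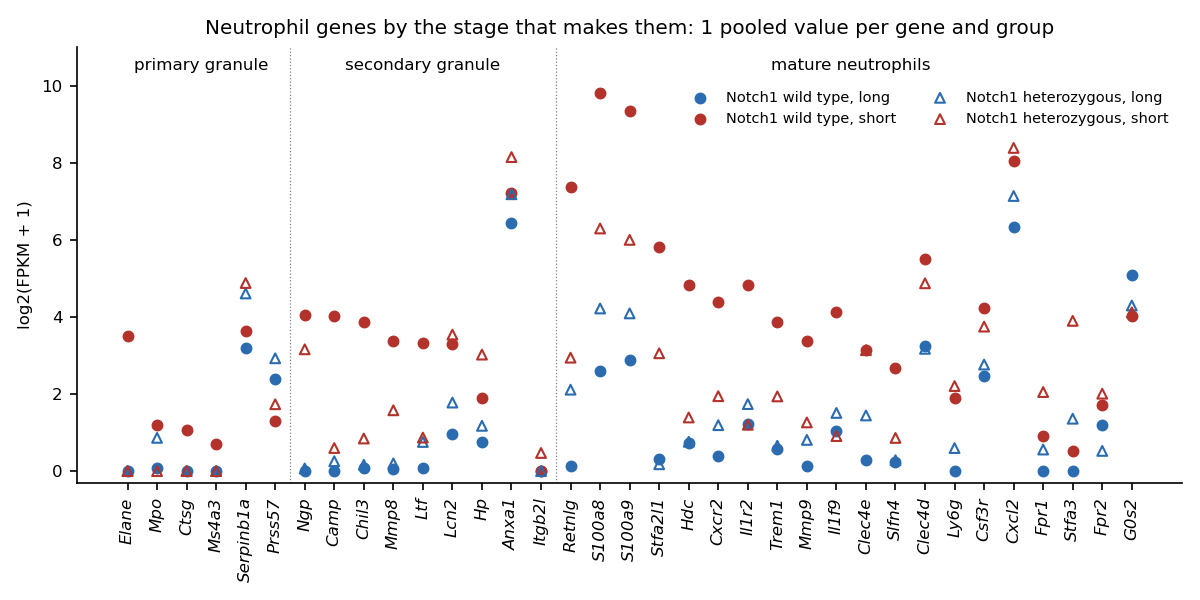
log2(FPKM + 1) of neutrophil genes in the 4 groups, ordered by stage and by the difference in Notch1 wild type valves; circles are Notch1 wild type, triangles Notch1 heterozygous, blue long and red short telomeres. Red circles lie above blue circles in 19 of 20 genes of mature neutrophils.

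In the heterozygous valves the median was 1.26 for mature neutrophil genes and 0.96 for the secondary granule. Of the 16 mature neutrophil genes that were 2-fold higher in wild type valves, 8 were 2-fold higher in heterozygous valves and 0 were 2-fold lower. Retnlg, at 3.32 and 6.68 FPKM, and Cxcr2, at 1.28 and 2.85 FPKM, differed less there. The difference between the Notch1 genotypes was not tested.

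Red cell transcripts were higher as well, those of platelets and macrophages were close to the median of all genes, and those of T cells were mixed. Of 19 erythroid genes, 9 were 2-fold higher and 0 lower, and the median was 0.83 in wild type and 0.81 in heterozygous valves. Car2, the carbonic anhydrase of red cells, stood at 24.5 and 164 FPKM, and Alas2, the first enzyme of haem synthesis in red cells, at 382 and 986 FPKM. Hba-a1, an alpha globin, stood at 5569 and 6916 FPKM. The transcription factor Gata1, needed by red cell precursors, was low at 1.05 and 0.294 FPKM, and the transferrin receptor Tfrc at 3.12 and 1.98 FPKM. Alpha globin Hba-a2 is a near-identical copy of Hba-a1, so the split of fragments between them is uncertain.

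Of 20 platelet genes, 18 lay within 2-fold (median -0.26), and Pf4, a platelet chemokine, stood at 773 and 637 FPKM. Of 19 macrophage and monocyte genes, 4 were 2-fold higher, 1 was lower and 14 lay within 2-fold (median 0.00). The lower one was the complement gene C1qc, at 91.7 and 43.5 FPKM. The higher ones were the integrin Itgam, at 10.7 and 23.2 FPKM, the monocyte gene Ly6c2, at 2.1 and 8.81 FPKM against 7.74 and 1.91 FPKM in heterozygous valves, the chemokine receptor Ccr2 at 1.94 and 5.0 FPKM and the endotoxin coreceptor Cd14 at 22 and 61.2 FPKM. Of 20 genes of T and natural killer cells, 6 were 2-fold higher and 6 lower. Cd8b1, a chain of the CD8 coreceptor, stood at 15.7 and 46.9 FPKM and Prf1, the killer protein perforin, at 0.456 and 8.2 FPKM. Against these, Cd3d of the T cell receptor complex stood at 9.89 and 2.31 FPKM and the costimulator Cd28 at 3.74 and 0.916 FPKM. Summed over the list, FPKM was 228 and 320.0 in wild type valves and 1911 and 65 in heterozygous valves. The long telomere group of heterozygous valves stood highest for the immature thymocyte gene Rag1 too (138 and 2.01 FPKM), which was level in wild type valves (13.1 and 11.5 FPKM). Other genes of that list were not level: of 11 members, 1 was 2-fold higher and 4 were lower in wild type valves (median -0.17). In heterozygous valves all 11 were 2-fold lower. Langerin, Cd207, a marker of a dendritic cell subset, stood at 0.527 and 22.9 FPKM in wild type valves and at 4.4 and 0.27 FPKM in heterozygous valves.

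Immediate early genes, which cells switch on within minutes of a stimulus and which tissue handling is known to induce, were higher with short telomeres. Of 27 measured members, 14 were at least 2-fold higher and 1 was lower, with a median of 1.09 in wild type and 0.44 in heterozygous valves. Atf3, a stress-induced repressor, stood at 27 and 91.9 FPKM. Nr4a1, an orphan nuclear receptor, stood at 72.7 and 208 FPKM. Dusp1, a phosphatase that turns off MAP kinases, stood at 109.8 and 352 FPKM, and Zfp36, a protein that destabilises cytokine mRNAs, at 187 and 611 FPKM. Jund, a more constant member of the AP-1 family, was the lower one, at 64.6 and 21.2 FPKM. Leaflets of all groups were incubated with collagenase for 20 minutes at 37 °C, and how far that step or the time since dissection moved these genes was not tested.

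Many immediate early genes carry response elements close to the start site. Promoter windows of RefSeq (GRCm38.p6), the 250 bases before each annotated start, were searched on both strands for the cAMP response element TGACGTCA, to which Atf3 and CREB proteins bind, and for the CArG box of serum response factor. The former was found in 2 of 20 members with a window (10%), Btg2 and Dusp1, and in 1.77% of all 27025 genes with a window. The CArG box was found in 2 of 20, Egr2 and Zfp36, and in 1.62% of all genes. The windows of Dusp1 (chr17:26508520-26508722, minus strand) and Btg2 (chr1:134079156-134079405, minus strand), which was 2-fold higher at 52.5 and 129 FPKM, are shown 5′ to 3′ with the element in capitals, without the part that overlaps an annotated exon.
Dusp1 promoter: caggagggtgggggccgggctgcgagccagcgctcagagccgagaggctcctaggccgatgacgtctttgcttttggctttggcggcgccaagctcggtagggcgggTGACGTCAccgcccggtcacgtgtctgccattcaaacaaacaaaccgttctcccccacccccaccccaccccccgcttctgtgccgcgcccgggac
Btg2 promoter: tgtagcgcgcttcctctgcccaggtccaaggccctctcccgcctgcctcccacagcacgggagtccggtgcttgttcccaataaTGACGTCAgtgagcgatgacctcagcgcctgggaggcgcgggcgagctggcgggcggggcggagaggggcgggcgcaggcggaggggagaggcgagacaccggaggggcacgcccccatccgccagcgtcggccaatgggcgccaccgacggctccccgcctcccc
The Dusp1 window also holds an E-box, left in lower case. A match describes the sequence and is not evidence that the site is in use. The table was made on build mm9, per the submitters' processing notes, so promoter coordinates were used for the sequence alone.

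NF-kappaB feedback genes and the secreted inflammatory genes were also mostly above the median of all genes. Of 18 NF-kappaB genes, 6 were 2-fold higher and 0 lower (median 0.74). Nfkbiz, an inducible cofactor of NF-kappaB, stood at 25.1 and 89.9 FPKM, the inhibitor Nfkbia at 27.5 and 60.1 FPKM and the adhesion molecule Icam1 at 15.6 and 36.5 FPKM. Sele and Vcam1, adhesion molecules of activated endothelium, were level at 10.3 and 10.1 FPKM and at 132 and 129 FPKM. Of 35 genes secreted by senescent cells, 8 were 2-fold higher and 7 lower (median 0.15), beside 8.9% and 20.9% of all genes. The count of lower genes was thus near the share of all genes. The chemokines Cxcl1 (27.4 and 93.2 FPKM), Cxcl2 (78.9 and 263 FPKM) and Ccl2 (9.97 and 37.5 FPKM) and the stromelysin Mmp3 (6.41 and 34 FPKM) were on the higher side. The activin chain Inhba (43.2 and 13.5 FPKM) and the growth factor Ereg (9.37 and 1.21 FPKM) were on the lower side. Of the 8 higher genes 7 were 2-fold higher in heterozygous valves too, and of the 7 lower genes 0 were lower there and 3 were higher.

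Genes that p53 activates lay above the median of all genes, and genes of the damage sensors lay near it. Of 28 p53 targets, 11 were 2-fold higher and 2 lower, with a median of 0.57 in wild type and 0.34 in heterozygous valves. Beside the cell cycle inhibitor Cdkn1a, the higher members were Gadd45a (6.92 and 33.7 FPKM) and Gadd45b (12.4 and 52.5 FPKM), which act in stress arrest, Plk2 (28.7 and 98.6 FPKM), a kinase, and Aen (4.21 and 13.4 FPKM), an exonuclease of apoptosis. Mdm2, which degrades p53, stood at 33 and 28.8 FPKM, Bax, a pore-forming killer protein, at 41.2 and 43.6 FPKM and the apoptosis gene Bbc3 at 3.46 and 0.491 FPKM. Btg2 is on this list and on that of immediate early genes, and the Gadd45 genes and Cdkn1a also respond to other stresses. Of the 11 higher targets, 2 were 2-fold higher in heterozygous valves.

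Of 24 genes of damage sensing, 1 was 2-fold higher and 5 were lower (median -0.30), beside 8.9% and 20.9% of all genes. The count of lower genes was thus near the share of all genes. H2afx, the histone variant that marks broken DNA, stood at 60.0 and 13.2 FPKM and at 109.9 and 29.7 FPKM in heterozygous valves. The kinase Atm stood at 6.67 and 1.9 FPKM and the adaptor Trp53bp1 at 6.03 and 0.787 FPKM. Mre11a, the nuclease that resects broken ends, was the higher one at 3.54 and 19.5 FPKM, against 7.25 and 2.24 FPKM in heterozygous valves. Among 16 shelterin and end protection genes, 2 were higher and 2 lower (median -0.08), beside the same shares of all genes. Terf1, which counts and binds the telomere repeats, stood at 5.58 and 14.6 FPKM and the linker Tinf2 at 7.9 and 18.2 FPKM. Pot1a, which covers the single-stranded end, stood at 4.81 and 1.46 FPKM, its paralogue Pot1b at 8.98 and 18.4 FPKM, and Stn1 (deposited as Obfc1), which helps refill the lagging strand, at 10.7 and 3.84 FPKM. In heterozygous valves Terf1, Tinf2 and Pot1b were lower with short telomeres, Terf1 at 17.7 and 8.36 FPKM. Of 13 telomerase genes, 2 were 2-fold higher and 4 lower, again beside 8.9% and 20.9% of all genes. Nop10, a protein of the telomerase RNA complex, stood at 23.3 and 63.3 FPKM, and Pinx1, a telomerase inhibitor, at 10.7 and 1.16 FPKM. Tert, the catalytic subunit, was near 0, at 0.036 and 0.0179 FPKM.

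Interferon-stimulated genes had a list median below that of all genes, which depended on members of low abundance, and Rsad2 stood higher. Of 21 members, 1 was 2-fold higher and 5 were lower, beside 8.9% and 20.9% of all genes. The list median was -0.83 in wild type and 0.03 in heterozygous valves. Relative to all genes the median was -0.60, and among genes with a mean of at least 10 FPKM it was 0.48, on the other side. Ifit3, which restrains viral RNA, stood at 35.9 and 8.13 FPKM, and Irf7, the factor that amplifies interferon, at 12.6 and 3.91 FPKM. Rsad2, the antiviral enzyme viperin, stood at 40.1 and 149 FPKM and at 17.1 and 44.4 FPKM in heterozygous valves.

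Antioxidant genes lay mostly within 2-fold. Of 23 members, 3 were 2-fold higher, 1 was lower and 16 lay above 0, and the median was 0.58 in wild type and 0.21 in heterozygous valves. Catalase, Cat, which splits hydrogen peroxide, stood at 117 and 281 FPKM, the metallothionein Mt2 at 47.7 and 132 FPKM and Gclm, a subunit of the enzyme that limits glutathione synthesis, at 12 and 28.5 FPKM. Gpx1, a glutathione peroxidase that red cells also carry, stood at 804 and 1450.2 FPKM, and Prdx2, the peroxiredoxin abundant in red cells, at 44.2 and 76.6 FPKM. Srxn1, which reactivates peroxiredoxins, was lower at 21.6 and 6.99 FPKM. Erythroid markers were higher in the same valves, and their part in these values was not tested. Chaperones (median 0.03) and genes of the unfolded protein response (median -0.10) each had 1 member 2-fold higher and 1 lower. Ppp1r15a, a stress-induced phosphatase subunit also known as an immediate early gene, was the higher one of the second list, at 16.6 and 51.2 FPKM.

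Protein-coding transcripts of the mitochondrial genome were higher with short telomeres. The table holds 4 mitochondrially encoded protein genes, and all 4 were 2-fold higher in both Notch1 genotypes. The genes mt-Nd3 and mt-Nd4l, subunits of complex I, stood at 3487 and 11108 FPKM and at 2980.4 and 9544 FPKM. Of 20 mitochondrial transfer RNA genes, 7 were 2-fold higher, 0 were lower and 13 lay within 2-fold, with a median of 0.53 in wild type and 2.19 in heterozygous valves. The higher ones in wild type valves included mt-Td at 1263 and 5774 FPKM, mt-Ti at 1408 and 5473 FPKM and mt-Tm at 1887 and 5562 FPKM. Others were level, such as mt-Ty at 4614 and 5436 FPKM and mt-Tn at 1916 and 1993 FPKM. Transfer RNA genes are far shorter than a read, so fragments of neighbouring long transcripts can count for them.

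Of 18 nuclear genes for mitochondrial transcription and biogenesis, 0 were 2-fold higher and 2 lower (median -0.52). Tfam, which packs and transcribes mitochondrial DNA, stood at 4.27 and 8.24 FPKM, Polg, the mitochondrial DNA polymerase, at 9.36 and 4.2 FPKM and the coactivator Ppargc1a at 10.5 and 7.17 FPKM. Of 37 nuclear respiratory chain genes, 3 were 2-fold higher, 0 were lower and 27 lay above 0 (median 0.27), among them Atp5b of the ATP synthase at 212 and 445 FPKM. Of 35 cytosolic ribosomal protein genes, 4 were higher and 0 lower (median 0.34), with Rps3 at 69.2 and 203 FPKM.

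Clock genes differed in opposite directions by their place in the loop. In the daily clock, Arntl (BMAL1) pairs with Clock or Npas2 to switch on the Per and Cry repressors, Nr1d1, Dbp, Tef and Ciart through E-boxes, and their products in turn hold the pair down. With short telomeres the activators were higher: Arntl stood at 1.72 and 10.3 FPKM, Npas2 at 1.18 and 4.53 FPKM and, within 2-fold, Clock at 15.9 and 30.5 FPKM. The repressors were lower: Per2 stood at 23.8 and 5.9 FPKM, Per3 at 22.3 and 7.13 FPKM, Per1 at 39.3 and 18.8 FPKM, Cry1 at 4.21 and 0.835 FPKM and Cry2 at 7.85 and 2.88 FPKM. Of the output genes, Ciart (deposited as Gm129) stood at 7.39 FPKM and was listed at 0, and Tef stood at 28.7 and 12.5 FPKM. Nr1d1, the repressor of Arntl, stood at 197 and 119.8 FPKM, and its partner Nr1d2 was level at 32.5 and 36 FPKM.

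Of the 19 clock genes, 8 were 2-fold lower and 3 higher, with a median of -0.71 in wild type and -0.22 in heterozygous valves. Of the 8 lower genes 3 were 2-fold lower in the heterozygous valves. There Arntl stood at 13.4 and 9.93 FPKM, Per2 at 11 and 9.99 FPKM and Dbp at 13.7 and 11.6 FPKM. The long telomere group of wild type valves was the lowest of the 4 groups for Arntl and the highest for Dbp, Per2 and Per3. Neither the labels nor the series text give the hour of dissection, so hour and telomere group cannot be told apart.

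Upstream windows of 16 clock genes were searched on both strands for the E-box CACGTG and the D-box TTATGNAA, the site of Dbp and Tef. The E-box was found in 5 of 16 (31.2%), Per1, Cry1, Tef, Bhlhe41 and Ciart, and in 6.86% of all genes with a window. The D-box was found in 2 of 16 (12.5%), Per1 and Per3, and in 3.63% of all genes. All 6 of these genes were lower with short telomeres, with differences between -0.77 for Bhlhe41 and -3.07 for Ciart. Of all 19 clock genes 12 lay below 0, among them Dbp (-3.40) and Per2 (-1.85), which are not among these 6. Outside the clock list, the E-box was also found in 4 of 20 immediate early genes (20%): Egr2, Dusp1, Klf4 and Klf6. Of these, Egr2 (1.12), Dusp1 (1.67) and Klf4 (1.30) were higher with short telomeres. A link between motif and direction was not tested. The windows of Ciart (chr3:95882252-95882478, minus strand), which holds 3 E-boxes, of Cry1 (chr10:85185065-85185304, minus strand), with 1 E-box, and of Per3 (chr4:151044666-151044915, minus strand), with 2 D-boxes, show where these motifs sit (capitals), again without annotated exons.
Ciart promoter: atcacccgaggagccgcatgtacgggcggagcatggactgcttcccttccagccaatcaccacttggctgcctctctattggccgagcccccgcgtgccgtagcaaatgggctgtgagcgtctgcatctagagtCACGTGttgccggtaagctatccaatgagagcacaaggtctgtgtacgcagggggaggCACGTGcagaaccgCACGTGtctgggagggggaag
Cry1 promoter: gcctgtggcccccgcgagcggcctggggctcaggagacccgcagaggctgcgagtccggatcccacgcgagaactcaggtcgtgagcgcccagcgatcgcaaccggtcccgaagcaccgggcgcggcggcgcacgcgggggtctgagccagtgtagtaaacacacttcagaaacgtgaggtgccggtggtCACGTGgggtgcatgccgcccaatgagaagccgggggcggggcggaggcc
Per3 promoter: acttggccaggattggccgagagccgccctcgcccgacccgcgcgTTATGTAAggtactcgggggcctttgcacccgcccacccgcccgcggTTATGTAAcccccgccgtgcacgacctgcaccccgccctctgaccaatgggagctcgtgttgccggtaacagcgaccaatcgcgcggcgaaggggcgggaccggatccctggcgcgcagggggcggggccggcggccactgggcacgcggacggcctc
The remaining clock genes held neither motif in these windows, which says nothing of sites farther away.

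**Figure D3:**
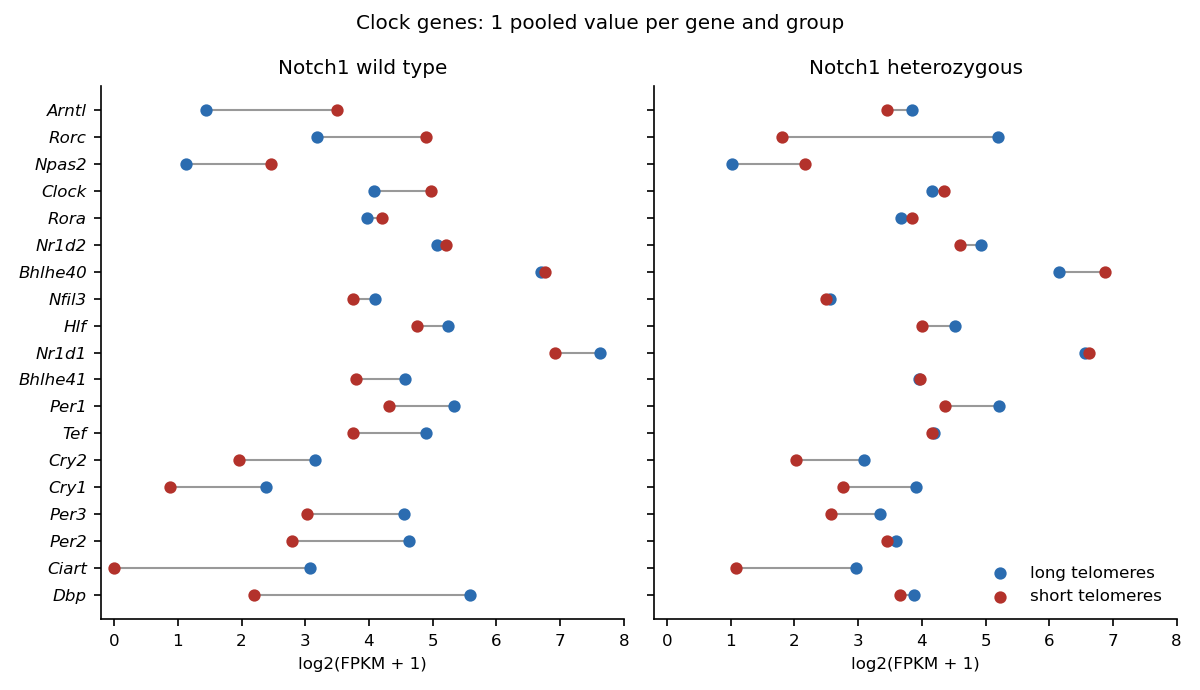
log2(FPKM + 1) of 19 clock genes with long (blue) and short (red) telomeres, 1 pooled value per gene and group, ordered by the difference in Notch1 wild type valves. In wild type valves Arntl is higher with short telomeres and the Per and Cry genes, Dbp and Ciart are lower; in heterozygous valves Arntl and Dbp lie close together.

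Genes of smooth muscle and of the atria were lower, and general cardiomyocyte genes were level. Of 15 genes of smooth muscle and myofibroblasts, 9 were 2-fold lower and 0 higher, with a median of -1.31. Lmod1, which starts actin filaments in smooth muscle, stood at 30.6 and 6.79 FPKM, Smtn (smoothelin), a marker of contractile cells, at 76.6 and 21.9 FPKM and Myocd, the master coactivator of the programme, at 14.5 and 5.24 FPKM. Of 13 genes enriched in the atria, 10 were 2-fold lower and 2 higher, with a median of -1.63. Nppa, a peptide hormone of the atria, stood at 352 and 46.8 FPKM, Myl7, the atrial light chain, at 216 and 47.1 FPKM and Sln, sarcolipin, an inhibitor of the calcium pump, at 31.4 and 0.439 FPKM. All 20 cardiomyocyte genes lay within 2-fold (median 0.02), with Myh6, the main myosin heavy chain of the mouse heart, at 392 and 399 FPKM. Both lower lists had the opposite sign in heterozygous valves, with medians of 0.47 and 0.33. In those valves Myl9, a smooth muscle light chain, stood at 28.5 and 64.9 FPKM, against 314 and 188 FPKM in wild type valves. Nppa stood at 43.4 and 413 FPKM and Sln at 0.563 and 21.6 FPKM there. How much atrial wall or arterial root came with the leaflets was not tested.

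Endothelial and fat cell genes lay above the median of all genes. Of 18 endothelial genes, 2 were 2-fold higher and 0 lower, with a median of 0.47 in wild type and 1.12 in heterozygous valves. Cldn5, a tight junction protein, stood at 2.6 and 15.5 FPKM and at 2.33 and 17.8 FPKM in heterozygous valves. Kdr, the main receptor for VEGF, stood at 12.6 and 34.8 FPKM and at 9.87 and 41.9 FPKM. Fat cell genes were higher: 8 of 12 by at least 2-fold and 0 lower, with a median of 1.32 in wild type and -0.04 in heterozygous valves. The members with the highest levels were Cd36, a fatty acid transporter that capillary endothelium and macrophages also carry, at 53 and 351 FPKM, and Fabp4, a fatty acid binding protein of the same cells, at 103 and 278 FPKM. The defining hormone of fat cells, Adipoq (adiponectin), was low, at 0.232 and 2.75 FPKM, and Plin1, the fat droplet coat, stood at 0.949 and 1.2 FPKM. In heterozygous valves Cd36 stood at 111 and 381 FPKM and Adipoq at 0.283 FPKM and 0.

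Of 11 melanocyte genes, which mark the pigment cells of the mouse valve, 1 was 2-fold higher and 3 were lower (median -0.39). Mlana, a melanosome protein, stood at 25.5 and 6.56 FPKM and Tyrp1, an enzyme of pigment synthesis, at 8.32 and 18.3 FPKM. Of 12 mesothelial and epicardial genes, 1 was higher and 3 lower (median -0.47), with Upk3b, an epicardial surface protein, at 24 and 5.73 FPKM. Schwann cell and neuron genes had a median of -0.02, with Uchl1, a neuronal enzyme, at 26.6 and 5.46 FPKM.

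Collagen genes and the enzymes that process them were lower in wild type valves, and the small proteoglycans were not. Of 22 members, 10 were 2-fold lower and 0 higher, with a median of -0.81 in wild type and -0.02 in heterozygous valves. Col5a1, which sets fibril width, stood at 54.2 and 16.6 FPKM, Col15a1 and Col18a1, which lie at basement membranes, at 50.4 and 14.2 FPKM and at 14.2 and 4.07 FPKM. Nearly all members lay on the lower side, with 1 above 0. P4ha1 and Plod1, which hydroxylate collagen chains, stood at 14.5 and 6.3 FPKM and at 16.5 and 7.11 FPKM. Col8a1, a short chain collagen of vessels and valves, stood at 12.3 and 17.6 FPKM. Of the 10 lower members 0 were 2-fold lower in heterozygous valves, where Col5a1 stood at 22.6 and 18.8 FPKM. Among 21 genes of elastic fibres and proteoglycans, 1 was higher and 4 lower (median 0.00). The elastic fibre genes Mfap2 (55.2 and 14.9 FPKM), Emilin1 (32 and 12.7 FPKM) and Fbn2 (4.12 and 0.257 FPKM) were lower. The proteoglycans Bgn (998 and 1000.2 FPKM), Prelp (929 and 937 FPKM) and Lum (443 and 635 FPKM) were level or somewhat higher.

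Of 18 cartilage-associated genes, 5 were 2-fold lower and 1 higher (median -0.54). Col11a2, a fibrillar chain of cartilage, stood at 10.9 and 0.948 FPKM and Chad, chondroadherin, at 159 and 59.6 FPKM. The transcription factor Sox9 stood at 61.1 and 43.7 FPKM. Cytl1, a small secreted protein, was the higher member at 325 and 652 FPKM. Of 20 matrix proteases and inhibitors, 6 were 2-fold higher and 2 lower (median 0.12). The higher ones were Mmp3 and Mmp11, the neutrophil proteases Mmp8 and Mmp9, the inhibitor Timp4, and Adamts1, which cuts versican, at 21.8 and 55.3 FPKM. The lower ones were Adamts15 (9.81 and 0.754 FPKM) and Adamts8 (15.6 and 3.29 FPKM).

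Bone and mineral genes were mixed. Of 9 measured osteoblast genes, 2 were 2-fold higher and 2 lower. The master regulator Runx2 stood at 3.45 and 3.67 FPKM, and Spp1 (osteopontin) at 8.18 and 8.63 FPKM in wild type against 8.35 and 130.2 FPKM in heterozygous valves. Msx2, a homeobox factor of bone and valve, stood at 3.82 and 0.0664 FPKM and Bglap2, osteocalcin, at 0.227 and 5.15 FPKM. Of 11 mineralisation inhibitors, 1 was higher and 1 lower. Sost, sclerostin, an inhibitor of Wnt signals, was the lower one at 21.9 and 2.32 FPKM, while in heterozygous valves it was low in both groups (1.41 and 1.19 FPKM). Mgp, matrix Gla protein, stood at 2835 and 2489 FPKM.

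Notch pathway genes lay below the median of all genes in wild type valves. Of 20 members, 7 were 2-fold lower and 2 higher, with a median of -0.64 in wild type and 0.35 in heterozygous valves. Among ligands, Dll1 stood at 7.97 and 2.12 FPKM and Jag1 at 12.4 and 5.41 FPKM, while Dll4, the ligand of vessel endothelium, was the higher one. The other receptors differed less than Notch1, with Notch2 at 43 and 34.6 FPKM. The Fringe glycosyltransferases, which tune how receptors meet their ligands, went both ways: Rfng stood at 12.2 and 1.13 FPKM and Mfng, which blood cells also express, at 3.99 and 15.2 FPKM. The target genes Hes1 (34 and 32.3 FPKM), Hey1 (23 and 19.8 FPKM) and Heyl (28.2 and 26.5 FPKM) were level, and Hey2 (18.1 and 4.04 FPKM) was lower. Of the 7 lower members, 0 were 2-fold lower in heterozygous valves and 1 was 2-fold higher.

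BMP and TGF-beta genes and Wnt genes lay around the median of all genes, at -0.23 and -0.11. The ligand Bmp4 stood at 31.7 and 64.6 FPKM, and Bmp6 stood at 27.5 and 53.5 FPKM. Bmp2 was lower at 15.4 and 7.15 FPKM, while the response genes Id1 (39 and 33.5 FPKM) and Id3 (119 and 167 FPKM) lay within 2-fold. Tgfb1 stood at 41.7 and 72.4 FPKM and Tgfb2 at 29.3 and 12.2 FPKM. Of 26 Wnt genes, 2 were 2-fold higher and 6 lower, near the 8.9% and 20.9% of all genes. The feedback targets Axin2 (23.7 and 3.78 FPKM), Nkd1 (28.2 and 6.74 FPKM) and Lef1 (13.2 and 6.02 FPKM), which the canonical pathway is known to induce, were among the lower. In heterozygous valves Axin2 stood at 13.7 and 8.33 FPKM and Nkd1 at 16.1 and 12.7 FPKM. The Frizzled receptor Fzd7 was higher at 11.6 and 24.9 FPKM.

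Of 21 transcription factors of valve development, 6 were 2-fold lower, beside 20.9% of all genes, and 0 were higher. Their median of -0.13 lay near that of all genes (-0.23), and 8 members lay above 0. Snai2, which drives the change from endothelium to mesenchyme, stood at 21.8 and 7.51 FPKM, Snai1 at 11.6 and 4.77 FPKM and the cardiac factor Nkx2-5 at 8.09 and 1.32 FPKM. Tbx20, the most abundant of them, stood at 195 and 277 FPKM, Gata4 at 62.9 and 57.3 FPKM and Hand2 at 51.6 and 47 FPKM. Of the 6 lower factors 0 were 2-fold lower in heterozygous valves.

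Many microRNA hairpins were lower with short telomeres. Of the 54 hairpins in the table, 27 (50%) were at least 4-fold lower and 4 higher, with a median of -2.02, against 5.17% lower among all genes. Other short RNA genes were also 4-fold lower more often than all genes, with 31.0% of annotated small nucleolar and 36.4% of small nuclear RNA genes. At 0 were 21 with short and 5 with long telomeres. The class was singled out after its values were seen. A hairpin is the short precursor of a microRNA, a guide RNA that silences mRNAs matching its seed, bases 2 to 8. Hairpins of this length (median 86 bases for the annotated microRNA genes) are shorter than a 100-base read, so that fragments of longer transcripts across the hairpin count for it, and the mature microRNA was not measured. The protocols describe no step that keeps the strand, so a hairpin and a gene on the other strand cannot be told apart.

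The mature sequences of lower hairpins that reached 10 FPKM with long telomeres are shown from RefSeq (GRCm38.p6), 5′ to 3′ with the seed in capitals, since the seed sets the targets. Of 23 hairpins past 4-fold at that level in either direction, 18 matched an entry.
miR-99a-5p: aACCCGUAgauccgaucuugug
miR-199a-3p: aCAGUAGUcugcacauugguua
miR-199a-5p: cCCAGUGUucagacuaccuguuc
miR-27b-3p: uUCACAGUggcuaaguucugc
miR-24-3p: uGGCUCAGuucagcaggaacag
miR-26a-5p: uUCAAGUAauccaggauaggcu
miR-29c-3p: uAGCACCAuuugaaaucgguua
miR-542-3p: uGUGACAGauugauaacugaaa
The hairpin of mir-99a stood at 66 FPKM with long and 0 with short telomeres, and at 12.8 FPKM and 0 in heterozygous valves. That of mir-199a-1 stood at 46.4 FPKM and 0. The hairpins mir-23b (chr13:63300484-63300557), mir-27b (chr13:63300712-63300784) and mir-24-1 (chr13:63301208-63301275) lie side by side on the plus strand in GRCm38.p6 and are cut from a common transcript. They stood at 26.3 and 0.916 FPKM, at 25.9 FPKM and 0, and at 18.6 FPKM and 0, so all 3 were lower. The hairpin of mir-29c, whose family is known to silence collagen mRNAs, stood at 43.2 and 1.01 FPKM in wild type and at 36.8 and 29.4 FPKM in heterozygous valves. The hairpin of mir-29b-2, of the same family, lay within 2-fold in wild type valves, at 10.5 and 6.58 FPKM. Collagen transcripts were lower in the same wild type valves, and a link to these hairpins was not tested. The higher hairpins included mir-107 at 1.15 and 20.0 FPKM and let-7d at 0 and 12.9 FPKM.

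Some hairpins lie inside protein-coding genes, and their host transcripts are given beside them. The hairpins were picked for their low values and the hosts were not, so the 2 sets are not compared. Of the hairpins at least 4-fold lower, 9 lay in 8 measured host genes on the same strand, and 1 of the 8 hosts was at least 2-fold lower, beside 20.9% of all genes. The host of mir-23b and mir-27b, 2010111I01Rik, stood at 46.2 and 48.7 FPKM. Ctdspl, the host of mir-26a-1, stood at 16 and 10.9 FPKM, against 22.8 FPKM and 0 for the hairpin. Tmem245, the host of mir-32, stood at 15.9 and 17.4 FPKM, against 15.3 FPKM and 0. Myh7, the slow myosin that hosts mir-208b, stood at 33 and 21 FPKM, against 44.3 and 9.23 FPKM. Gabre, the host of mir-224, was the lower host, at 7.75 and 0.248 FPKM. In heterozygous valves, 12 of the 27 lower hairpins were at least 2-fold lower, beside 24 of all 54 hairpins, which is the same share. The class median there was -0.81.

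**Figure D4:**
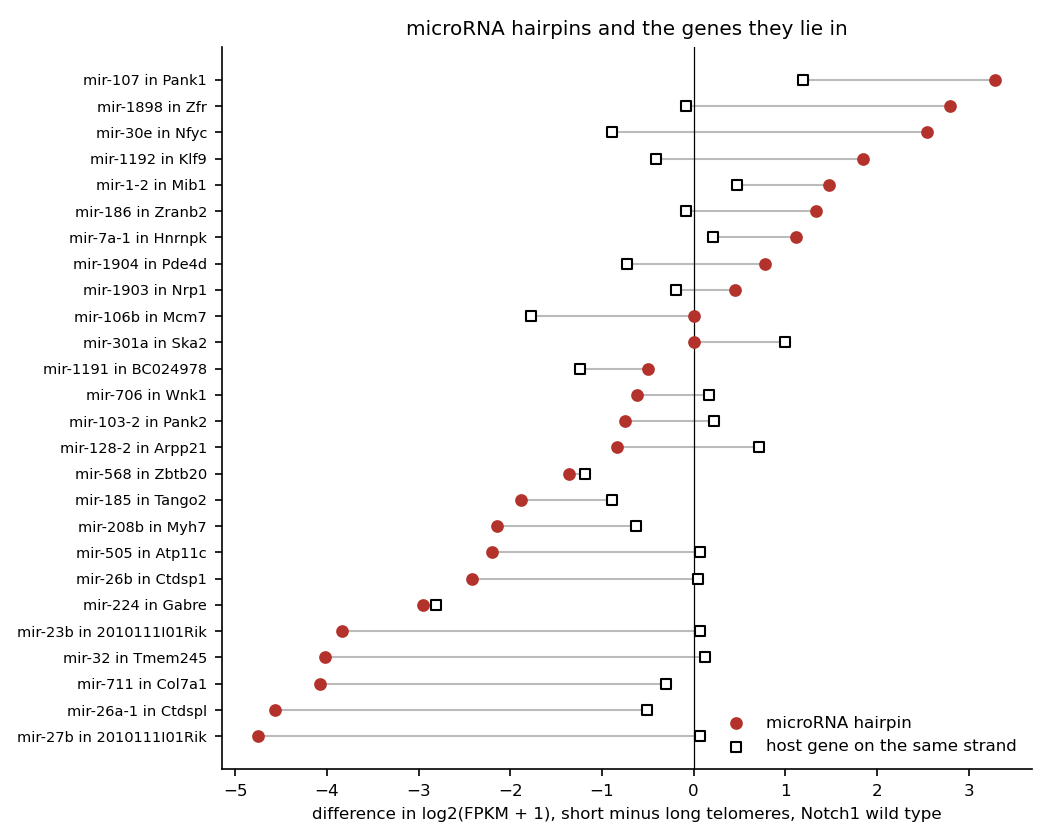
Difference in log2(FPKM + 1), short minus long telomeres, in Notch1 wild type valves for microRNA hairpins (red) and for the protein-coding gene on the same strand that holds each of them (open squares). Gabre, which holds mir-224, is the lowest of the 8 host genes of hairpins at least 4-fold lower.

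Cell cycle genes lay slightly below the median of all genes. Of 26 members, 7 were 2-fold lower and 2 higher, near the 20.9% and 8.9% of all genes. The median was -0.37 in wild type and -1.77 in heterozygous valves. Ccnb2 stood apart from its partners: Cdk1, the kinase it activates, stood at 1.75 FPKM and 0, Ccnb1 at 2.45 and 0.355 FPKM, and the proliferation marker Mki67 at 19.5 and 21.7 FPKM. The replication genes Pcna and Rrm2 stood at 22.2 and 42.4 FPKM and at 5.78 and 15.1 FPKM.

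The genes past 4-fold in wild type valves were then looked up in the heterozygous valves, which came from other mice. Of the 419 higher genes, 61 (14.6%) were at least 2-fold higher there, beside 4.71% of all genes, and 99 (23.6%) were at least 2-fold lower, beside 16.8% of all genes. The remaining 259 genes were past 2-fold in neither direction. Of the 935 lower genes, 380 (40.6%) were at least 2-fold lower in heterozygous valves, again beside 16.8% of all genes, and 38 (4.06%) were at least 2-fold higher. Among the higher genes, S100a8 (17.6 and 77.4 FPKM), Stfa2l1 (0.131 and 7.32 FPKM) and Ngp (0.048 and 7.93 FPKM) were higher in both settings. Ccnb2 (29.4 and 8.48 FPKM) and Tcrg-V2 (48.2 and 5.71 FPKM) were lower with short telomeres in heterozygous valves. Of the lower genes, U2af1l4 (17.6 FPKM and 0) and Snurf (4.17 FPKM and 0) were lower in both, and Sln was not. Genes with low values are listed at 0 more often with short telomeres in both genotypes, in 2010 and 1181 cases against 705 and 250, and the shared lower genes include such cases.

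**Figure D5:**
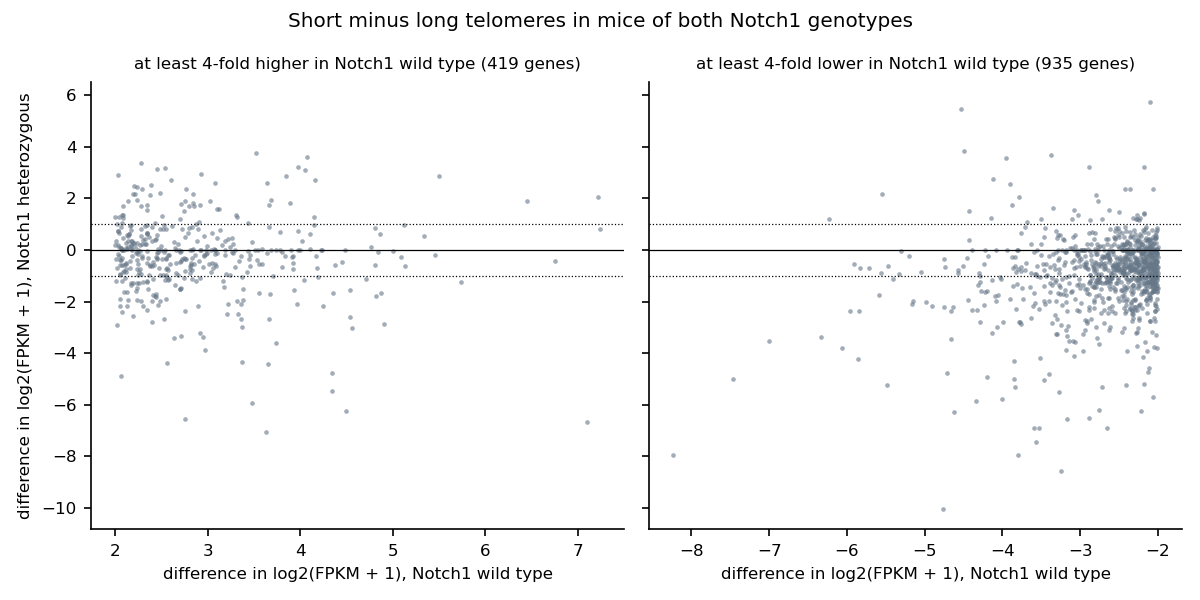
Difference in log2(FPKM + 1), short minus long telomeres, in Notch1 heterozygous valves (vertical axis) for the 419 and 935 genes at least 4-fold higher or lower in Notch1 wild type valves (horizontal axis); dotted lines mark 2-fold. Points of the lower genes lie mostly below 0 in heterozygous valves, and those of the higher genes lie on both sides.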

How the data were processed

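Leaflet RNA was reverse transcribed with random and poly-T primers, amplified linearly with a NuGen Ovation V2 kit, and read as 100-base pairs, 4 libraries sharing a lane (per the labels' protocols). The submitters' processing notes name FastQC, TopHat, SAMtools, Picard and build mm9, with no versions or order. The authors deposited FPKM values, 1 per gene and group, pooled over mice, per the file headers; their columns of significance calls were not used here.

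From these values log2(FPKM + 1) differences were computed for 18073 genes with Python 3.11.15, pandas 2.3.3 and numpy 2.4.6, and figures were drawn with matplotlib 3.10.9. No test was possible, because each group has 1 value; a gene was counted as higher or lower past 2-fold or 4-fold on that scale. The counting was tested on a simulated table. Per gene list, the text could name the 4 members with the largest difference among those reaching 5 FPKM and the 3 with the highest FPKM, and per direction the 15 largest differences among genes reaching 10 FPKM that do not carry clone or predicted names. Other members were named after their values were seen, to cover a role. The members, the 52 lists and the named genes were chosen with earlier results of these data known, and the 7 gene classes (microRNA hairpins, small RNAs, histones and mitochondrial ribosomal proteins) were chosen after their values were seen. Gene types and lengths came from GENCODE M21, which held 16962 (93.9%) of the identifiers; older symbols were matched through it. Promoter and microRNA sequences came from RefSeq on GRCm38.p6, matched by name, and no coordinate was converted between builds. Alternatives were a pseudocount of 0.1, a minimum mean of 1 or 10 FPKM, centring on the median of all genes, and scaling to the upper quartile or to the total without mitochondrially encoded genes. The protocols describe no step that keeps the strand, so overlapping and antisense genes cannot be told apart. The labels give no sequencing batch for the samples. A few genes covered by these rules are not reported here.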

Additional observations from a re-analysis of the deposited data

How the results depend on the processing

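The pooled values carry no spread, so depth, 1 deviating mouse or a batch cannot be weighed, and leaving out single mice was not possible. No paired analysis was possible because the table gives 1 pooled value per group and the replicate numbers have no columns. With a pseudocount of 0.1, 874 genes were at least 4-fold higher and 2912 lower, the median of all genes was -0.34, and the shares past 2-fold the same way in heterozygous valves were 20.0% of the higher and 51.8% of the lower genes. Among genes with a mean of at least 10 FPKM, 171 were higher and 179 lower and the median was -0.0389. After centring, the median was 0, with 542 genes higher and 643 lower, and the shares in heterozygous valves were 20.1% and 35.6%. The cause of these shifts was not tested. A minimum mean of 1 FPKM, scaling to the upper quartile and scaling without mitochondrially encoded genes left the 5 counts and medians of all genes within 1.5 times or the set tolerance. Relative to all genes, 298 list medians computed under the alternatives stayed within 0.5, 12 moved by more, and 1 changed sign: interferon-stimulated genes, at 0.48 with a mean of at least 10 FPKM, where fewer genes are counted. Of the values of named genes, 1730 stayed on their side of 2-fold and 64 crossed it, and none that was past 2-fold as deposited changed sign.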

Other observations

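Histone transcripts, which carry no poly-A tail when made for DNA replication, lay below the median of all genes. Of 62 histone genes, 13 were at least 4-fold lower and 0 higher, and the median was -0.53 in wild type and -1.40 in heterozygous valves. At least 2-fold lower were 27 genes, and 19 of these were 2-fold lower in heterozygous valves too. Hist1h2bl stood at 34.1 and 13.2 FPKM in wild type and at 135 and 15.9 FPKM in heterozygous valves. H3f3b, a histone gene used outside replication, stood at 60.4 and 85.7 FPKM. The class was chosen after its values were seen, and several histone genes are near-identical copies.

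Small nuclear and nucleolar RNAs scattered in both directions. Among all genes 2.32% were at least 4-fold higher and 5.17% lower. Of 69 H/ACA small nucleolar RNAs, the family to which the telomerase RNA is related, 12 were at least 4-fold higher and 20 (29.0%) lower. The 2 identifiers named SNORA32 differed in opposite directions, with ENSMUSG00000064811 at 5.03 and 109 FPKM and ENSMUSG00000065265 at 20.8 FPKM and 0. Of 14 small Cajal body RNAs, which guide changes to spliceosomal RNAs, 1 was higher and 6 (42.9%) were lower. SCARNA17 stood at 152 and 12.9 FPKM and at 48.7 and 11.5 FPKM in heterozygous valves, and SCARNA18 at 75 and 5.37 FPKM and at 22.5 and 4.64 FPKM. Of 62 joining segments of T cell receptors, 9 (14.5%) were higher and 22 (35.5%) lower. All these genes are short, so that each fragment adds a large FPKM.

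Nuclear genes of the mitochondrial ribosome lay near the median of all genes. Of 74 members, 1 was at least 4-fold higher and 2 lower, with a median of -0.30 in wild type and -0.29 in heterozygous valves. Mrpl38 stood at 18.8 and 2.65 FPKM and Mrps31 at 10.6 and 49 FPKM. Class II antigen presentation genes, of dendritic cells and macrophages, were mostly level: H2-Aa stood at 702 and 669 FPKM and Cd74 at 1190.5 and 906 FPKM, while H2-DMa, which helps load peptides, stood at 92.3 and 32 FPKM. The 18 genes of glucose transport and metabolism had a median of -0.19, with Gapdh at 397 and 347 FPKM.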
